A study of Zea mays with 3 samples.

Results

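The centromere interval of maize chromosome 2 was taken as a stretch of 16 Mb in B73 RefGen_v4 divided into bins of 10 kb, which came to 1600 of the 210639 bins on chromosomes 1 to 10. Reads were counted by their midpoint and divided by the median of the non-empty bins of the same library, and this ratio is called the fold. A bin was called enriched at a fold of 10 or more. Of the 1600 bins, 93 were enriched in B73, and all lay in a single domain of 1.91 Mb (chr2:95580001-97490000). The interval ran from 7.58 Mb before this domain to 6.51 Mb after it. The interval was chosen because it holds this B73 centromere and because neither F3 line was enriched there, so the read levels of the 3 lines in it are a description and were not tested.

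The study sequenced DNA precipitated with an antibody against CENH3 from young leaves of F3-152, F3-600 and the inbred line B73, which the labels give as the control genotype. There was 1 library of each line, and no input library was analysed here, so no test between lines was possible and the intervals given here, all at 95%, cover counting error only. The series title refers to irradiated material. The labels give neither the origin of the F3 lines nor the number of plants behind a library.

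CENH3 is the histone H3 variant that replaces canonical H3 in part of the nucleosomes of active centromeres and marks where the kinetochore forms. Maize centromeres are built of CentC satellite repeats and CRM retrotransposons, interspersed with sequence that is unique enough to be mapped, and their position can differ between inbred lines. In a short-read map of uniquely aligned reads the unique stretches carry the CENH3 signal, and stretches of identical repeats can appear empty.

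The F3-152 library held 21026602 aligned reads, F3-600 held 14454963 and B73 held 7716211, and the median non-empty bin held 90, 64 and 32 reads in that order. Counted once per position and strand, 96.3% of reads remained in F3-152, 96.4% in F3-600 and 79.8% in B73, and such reads are called distinct. The read names give a different sequencing instrument for each line, so effects of line and instrument cannot be told apart. A fragment with both mates aligned counts as 2 reads. Poisson intervals were therefore taken over fragments, and they are still too narrow because duplicates were kept.

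In both F3 lines the stretch that forms the B73 centromere held no bin at the enrichment threshold, as the choice of the interval required. F3-152 had 0 bins of the 1600 at a fold of 10 or more and F3-600 had 0, against 93 in B73. Over all bins of chromosomes 1 to 10, the same threshold was passed by 0.306% of bins in F3-152, 0.233% in F3-600 and 0.348% in B73. Of the 93 B73-enriched bins 0 were enriched in F3-152 and 0 in F3-600. Among the 734 B73-enriched bins of chromosomes 1 to 10, 55.2% were enriched in F3-152 and 39.0% in F3-600. Since the interval was selected for this absence, nothing is read from the difference. At a lower threshold of 5, 2 bins passed in F3-152 and 7 in F3-600, against 136 in B73. When fragments were counted in place of reads, 1 of the 93 bins reached a fold of 10 in F3-152 and 2 in F3-600.

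**Figure D1:**
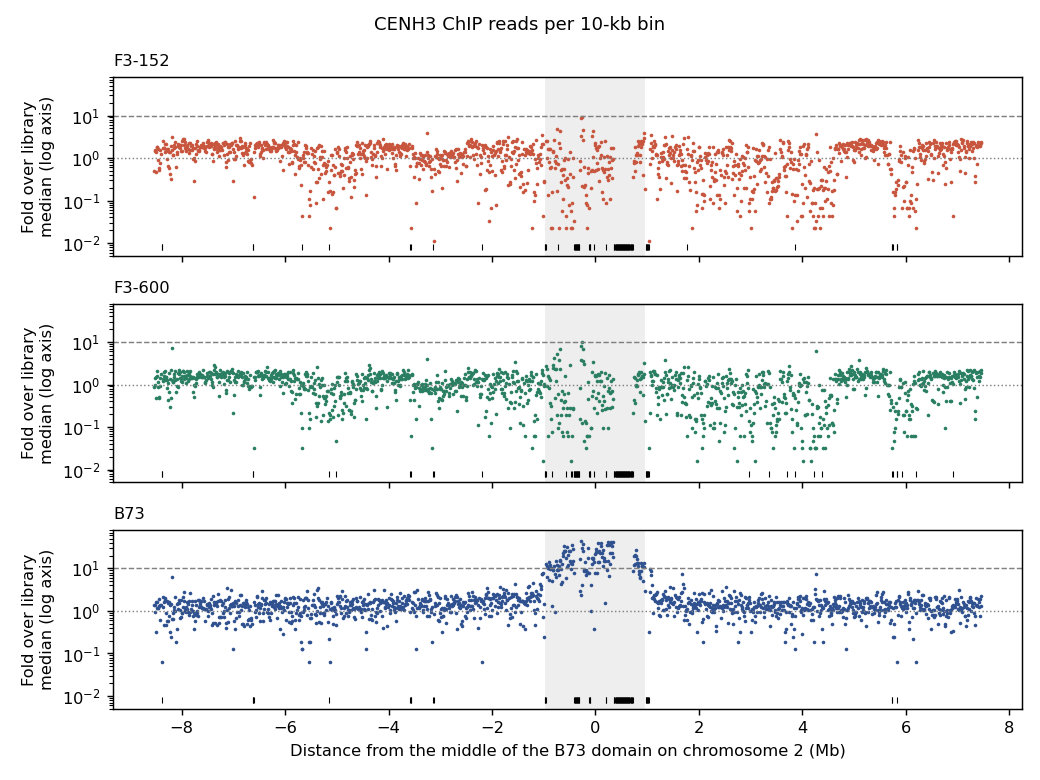
CENH3 ChIP fold per 10-kb bin (vertical, log axis) against the distance in Mb from the middle of the B73 domain, for F3-152, F3-600 and B73 from top to bottom; the grey band is the B73 domain, the dashed line a fold of 10, the dotted line a fold of 1, and black ticks at the base mark empty bins. The 93 bins above the dashed line are all in B73 and in the grey band, where the F3 lines reach 9.08 and 9.89 at most.

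The 93 B73-enriched bins held 11983 reads in F3-152, 8378 in F3-600 and 61123 in B73. These were 0.0572% of the F3-152 library, 0.0580% of the F3-600 library and 0.793% of the B73 library on chromosomes 1 to 10. The F3-152 bins had folds of 0.0222 to 9.08 with a median of 0.989, the F3-600 bins 0 to 9.89 with a median of 0.938, and the B73 bins 10 to 43.6 with a median of 17.2. The median bin was thus near the library median in both F3 lines, although single bins came close to the threshold. The mean fold was 1.43 in F3-152 (exact Poisson interval 1.40 to 1.47), 1.41 in F3-600 (1.37 to 1.45) and 20.5 in B73 (20.3 to 20.8). The scaled level in these bins was 0.0697 times that of B73 in F3-152 (0.0679 to 0.0716) and 0.0685 times in F3-600 (0.0664 to 0.0707). In the flanks, the 1409 bins of the interval outside the domain, it was 0.873 times that of B73 in F3-152 (0.863 to 0.884) and 0.757 times in F3-600 (0.747 to 0.767).

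The domain was set against its flanks within each library, which needs no scaling. Counted over all 191 bins from the first to the last enriched bin, the mean count per bin in the domain was 0.686 times that of the flanks in F3-152 (0.670 to 0.702), 0.802 times in F3-600 (0.780 to 0.824) and 8.14 times in B73 (8.02 to 8.25). The 191 bins included 52 that were empty in all 3 libraries. Over the 93 B73-enriched bins alone the ratio to the flanks was 1.16 in F3-152 (1.13 to 1.19), 1.31 in F3-600 (1.27 to 1.35) and 14.5 in B73 (14.3 to 14.7). The F3 ratios therefore lay below 1 over the whole domain and above 1 over its enriched bins. With enriched bins joined over 100 kb in place of 500 kb the domain shortened to 0.65 Mb, and the ratio became 0.999 in F3-152 and 1.12 in F3-600, against 9.15 in B73.

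The domain was not uniform in B73. Besides the 93 enriched bins it held 46 bins with reads below the threshold, with a mean fold of 0.634 in F3-152 (0.601 to 0.668), 0.732 in F3-600 (0.692 to 0.774) and 6.4 in B73 (6.24 to 6.57). The enriched bins formed 23 runs of adjacent bins, of which 3 were single bins, and the 5 runs with the most B73 reads held 48 bins and 56.4% of the B73 reads. The longest run, 14 bins at chr2:96580001-96720000, had a mean fold of 1.04 in F3-152, 0.952 in F3-600 and 22.7 in B73. The run with the highest mean among these 5, 9 bins at chr2:96800001-96890000, reached 0.916 in F3-152, 0.715 in F3-600 and 30.05 in B73. The mean of each F3 line was below its library median over the 90 kb of that run.

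The 10 bins at chr2:97270001-97370000 had a mean fold of 1.29 in F3-152, 1.12 in F3-600 and 16.6 in B73. The 7 bins at chr2:95890001-95960000 had 0.475 in F3-152, 0.482 in F3-600 and 23.6 in B73. At chr2:95970001-96050000, 8 bins had 0.450 in F3-152, 0.574 in F3-600 and 19.8 in B73. These last 2 runs, which follow each other on the chromosome, were below the median in both F3 lines. The other 18 runs held at most 5 bins each, and their means spanned 0.233 to 9.08 in F3-152 and 0.125 to 9.89 in F3-600.

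There were 2 long stretches between the runs with almost no reads in any library. Of the 13 bins at chr2:96110001-96240000, 11 were empty in F3-152, F3-600 and B73 alike, and of the 38 bins at chr2:96890001-97270000, 37 were. Read levels in these stretches were not measured by uniquely aligned reads, and the sequence under them was not analysed here. The share of empty bins in the domain was 28.3% in F3-152, 30.9% in F3-600 and 27.7% in B73, and in the flanks it was 1.92%, 2.41% and 1.63% in the same order.

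The 3 bins with the highest B73 fold had unlike F3 levels. In the bin chr2:96250001-96260000, F3-152 had 800 reads, F3-600 had 521 and B73 had 1396, which gave folds of 8.89, 8.14 and 43.6. The bin chr2:96870001-96880000 had 154 reads in F3-152, 85 in F3-600 and 1369 in B73, with folds of 1.71, 1.33 and 42.8. For chr2:96840001-96850000 the counts were 159 reads in F3-152, 78 in F3-600 and 1344 in B73, with folds of 1.77, 1.22 and 42. A bin with a like B73 level could thus be well above the F3 median or close to it. The highest bin of either F3 line was chr2:96270001-96280000, with 817 reads in F3-152, 633 in F3-600 and 950 in B73 and folds of 9.08, 9.89 and 29.7. The next bin in F3-152 after these was chr2:95780001-95790000, with folds of 4.90 in F3-152, 5.28 in F3-600 and 12.1 in B73. In F3-600 it was a flank bin, chr2:88350001-88360000, with 3.12 in F3-152, 7.28 in F3-600 and 6.34 in B73.

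At the other end, several bins well above the threshold in B73 held hardly any F3 reads. The bin chr2:96070001-96080000 had 2 reads in F3-152, 0 in F3-600 and 415 in B73. Its neighbour chr2:96060001-96070000 had 2 reads in F3-152, 1 in F3-600 and 436 in B73. In chr2:96080001-96090000 there were 8 reads in F3-152, 4 in F3-600 and 1111 in B73, a fold of 0.0889 in F3-152, 0.0625 in F3-600 and 34.7 in B73. These 3 adjacent bins are part of a run of 5 whose mean fold was 0.298 in F3-152, 0.125 in F3-600 and 21.1 in B73. For a count of 0 the interval reaches up to 3.69 fragments, against 231 B73 fragments in the bin that was empty in F3-600 (202 to 263).

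Other bins with very low F3 to B73 ratios were chr2:95670001-95680000 and chr2:95970001-95980000 in F3-152, with 2 and 4 reads against 320 and 559 in B73, and chr2:96010001-96020000 and chr2:95900001-95910000 in F3-600, with 4 reads each against 651 and 613 in B73. The ratio of folds per bin, F3 over B73, had a median of 0.0434 in F3-152 and 0.0404 in F3-600, and it was below 0.05 in 48 bins of F3-152 and 51 of F3-600. The 5 highest values ran from 0.271 to 0.404 in F3-152 and from 0.333 to 0.448 in F3-600. They reached 0.404 at chr2:95780001-95790000 in F3-152 and 0.448 at chr2:95840001-95850000 in F3-600. Next came chr2:96270001-96280000 in F3-152 with 0.306, chr2:95780001-95790000 in F3-600 with 0.436 and chr2:95730001-95740000 in F3-600 with 0.373. No bin of the 93 had a higher fold in F3-152 or in F3-600 than in B73. The choice of the bins and of the interval fixed this in advance.

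The threshold divided bins of like level. The 3 bins just inside it had B73 folds of 10, 10 and 10.1 (chr2:95620001-95630000, chr2:95670001-95680000 and chr2:95610001-95620000). Their folds were 0.133, 0.0222 and 1.59 in F3-152 and 0.0625, 0.156 and 1.59 in F3-600. The 3 just outside had B73 folds of 9.84, 9.66 and 9.66 (chr2:95800001-95810000, chr2:95660001-95670000 and chr2:95860001-95870000), with 0.733, 0.578 and 0.522 in F3-152 and 0.594, 0.359 and 0.438 in F3-600.

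**Figure D2:**
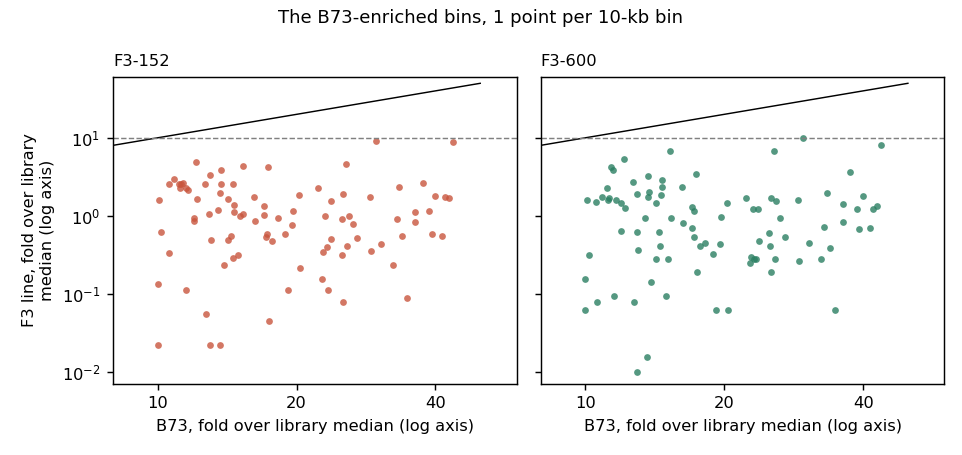
Fold in F3-152 (left) and F3-600 (right) on the vertical axis against fold in B73 on the horizontal axis for the 93 B73-enriched bins, both on log axes; the F3-600 bin with 0 reads is drawn at 0.01. The F3 folds run from 0.0222 to 9.08 in F3-152 and from 0 to 9.89 in F3-600, with no visible slope on B73 in these selected bins. All 93 points lie below equality in both lines, as the choice of bins and interval requires.

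Within the 93 B73-enriched bins, the folds of the 2 F3 lines rose and fell together from bin to bin. Their correlations with B73 were low in these selected bins. Over the 93 bins, Pearson's r of the folds was 0.935 and Spearman's rho 0.944 between F3-152 and F3-600. Between F3-152 and B73 they were 0.0910 and -0.0724, and between F3-600 and B73 0.0987 and -0.0158. In the 1409 flank bins r was 0.878 between the F3 lines, 0.360 between F3-152 and B73 and 0.389 between F3-600 and B73. These are descriptions across bins. The 93 bins were chosen by their B73 fold, which narrows the range of B73 and can lower its correlations. The values with B73 in these bins therefore cannot be set against those between the F3 lines or in the flanks. All bins of a line share 1 library, neighbouring bins are not independent, and the part of a bin to which reads can align uniquely is common to all libraries.

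Some bins of the B73 centromere were well below the library median in the F3 lines, about as often as bins elsewhere in the genome. Of the 93 B73-enriched bins, 27 (29.0%) were at a fold of 0.5 or less in F3-152, 34 (36.6%) in F3-600 and 0 in B73, and 27 (29.0%) were so in both F3 lines. Over the bins of chromosomes 1 to 10 with a read in any library, this held for 30.2% in F3-152, 31.0% in F3-600, 24.5% in both F3 lines and 15.9% in B73. The F3 shares in the enriched bins were thus near the genome-wide ones and are no result about these bins. The 0 in B73 is fixed by the threshold of 10. Among the 1390 flank bins with reads, 21.5% were this low in F3-152, 23.8% in F3-600, 19.8% in both F3 lines and 6.91% in B73. Each of these flank shares was below the genome-wide share of the same line or lines. The right flank had more of them than the left, with 30.1% of its bins low in both F3 lines against 11% in the left flank.

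Along the interval both F3 lines were high or low together over megabases, and B73 varied little outside its domain. In windows of 1 Mb the median fold of the F3 lines was lowest in the window from 96 Mb, at 0.350 in F3-152 and 0.258 in F3-600, where B73 had its highest median. That window held 27 empty bins in F3-152, 31 in F3-600 and 27 in B73, which count in the medians. A similar low stood outside the B73 domain, in the window from 100 Mb, with 0.356 in F3-152, 0.297 in F3-600 and 1.27 in B73, and with 1, 4 and 0 empty bins in the same order. The F3-152 median was highest in the window from 103 Mb, with 1.86 in F3-152, 1.53 in F3-600 and 1.25 in B73, and the F3-600 median in the window from 89 Mb, with 1.78 in F3-152, 1.55 in F3-600 and 1.23 in B73. Apart from the windows from 95, 96 and 97 Mb, which hold the domain, B73 medians stayed between 1.19 and 1.70. A low F3 level over 1 Mb was therefore not particular to the domain.

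**Figure D3:**
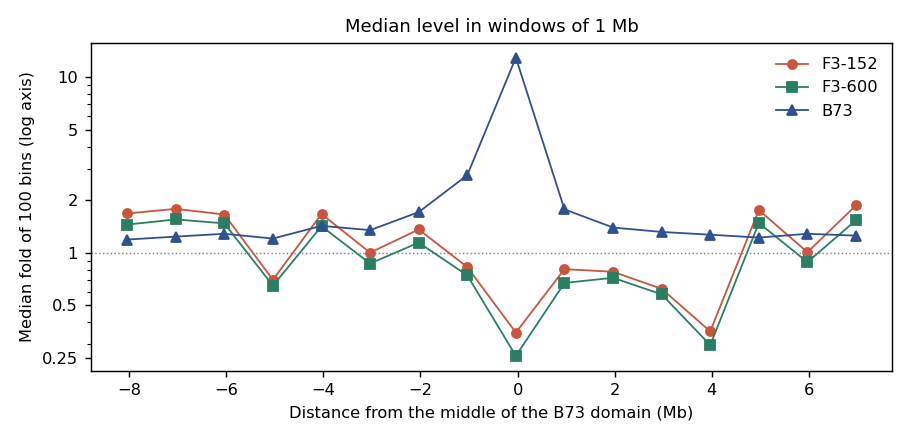
Median fold of the 100 bins of each 1-Mb window (log axis) against the distance in Mb from the middle of the B73 domain, for F3-152, F3-600 and B73. The F3 lines run together with lows of 0.350 and 0.258 in the domain and of 0.356 and 0.297 in a window to its right, while B73 peaks in the domain.

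The low F3 bins also formed runs. There were 4 runs of at least 10 adjacent bins at a fold of 0.5 or less in both F3 lines, of which 2 lay in the domain and were mostly of bins empty in all libraries, 37 of 38 and 11 of 13. The other 2 lay in the right flank. The 15 bins at chr2:102250001-102400000 had median folds of 0.133 in F3-152, 0.0938 in F3-600 and 0.625 in B73, and the 10 bins at chr2:99910001-100010000 had 0.183 in F3-152, 0.156 in F3-600 and 1.3 in B73. In the second of these, B73 was above its own library median while both F3 lines were far below theirs.

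Next to the domain, B73 was above the median of all its flank bins, 1.31. The F3 lines were below theirs, 1.26 in F3-152 and 1.08 in F3-600. At the right edge, however, F3-152 was above the median of its right flank alone, 1.04. Within 0.25 Mb of the left edge the median fold was 0.744 in F3-152, 0.672 in F3-600 and 1.91 in B73, and within 0.25 Mb of the right edge it was 1.17 in F3-152, 0.812 in F3-600 and 1.97 in B73. More than 4 Mb from the domain it was 1.59 in F3-152, 1.41 in F3-600 and 1.22 in B73 on the left, and 1.66 in F3-152, 1.41 in F3-600 and 1.25 in B73 on the right. B73 was thus the highest of the 3 lines at the edges and the lowest in the outer flanks.

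At a resolution of 1 kb, the B73 signal filled the enriched bins and the F3 reads left gaps in them. The bins were chosen by their B73 level in an interval without F3 enrichment, so a contrast of this direction is built in. Of the 930 windows of 1 kb in the 93 bins, 325 (34.9%) had no read in F3-152, 327 (35.2%) had none in F3-600 and 54 (5.81%) had none in B73. In the flanks 18.7% of windows were empty in F3-152, 21.3% in F3-600 and 20.3% in B73. Where there were reads, the median F3 window was as full in the enriched bins as in the flanks. It held 13 reads in the enriched bins and 13 in the flanks of F3-152, and 8 and 8 in F3-600, against 61.5 and 4 in B73.

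In 240 of the 930 windows (25.8%) neither F3 library had a read, and the B73 median there was 40 reads, a fold of 12.5. In the 518 windows with reads in both F3 libraries the B73 median was 63 reads, a fold of 19.7. All these windows lie in bins chosen for their B73 level, so a high B73 median in them is built in. Of the 240 windows without F3 reads, 47 were empty in B73 too, against 3 of the 518. Mapping quality, the aligner's score of how certain a position is, ran from 20 to 60 in these libraries. In the windows without F3 reads, 46.5% of the B73 reads had the highest mapping quality, against 57.7% in the windows with reads in both F3 libraries.

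By bases, F3-152 reads covered 33.2% of the enriched bins, F3-600 reads 30.6% and B73 reads 83.4%. The choice of bins and interval favours B73 here too. In the flanks B73 was the lowest, with 47.1% in F3-152, 39.8% in F3-600 and 24.6% in B73, in the order of the read numbers of the libraries. Of the bases that B73 reads covered in the enriched bins, 37.8% were covered in F3-152, 34.6% in F3-600 and 47.0% in at least 1 of them. In the flanks these shares were 54.3%, 45.8% and 67.8%. The F3 lines covered the same bases to a large extent. Of the B73-covered bases of the enriched bins that had an F3-152 read, 67.0% also had an F3-600 read, and of those without one 14.9% had. In the flanks these shares were 59.5% and 29.5%, so joint coverage was not particular to the enriched bins.

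A small number of windows held much of the F3 signal of the domain. F3-152 had 11 windows of 1 kb at a fold of 10 or more in the domain and F3-600 had 21, of which 7 were shared. Of the 930 windows in the enriched bins, 10 were this high in F3-152, 17 in F3-600 and 712 in B73. Of the 14090 flank windows, 3 were in F3-152, 5 in F3-600 and 81 in B73. The choice of bins raises the B73 count. The windows of the domain at this fold held 17.2% of its reads in F3-152 and 27.0% in F3-600. Without them the mean fold of the enriched bins was 1.16 in F3-152 and 1.03 in F3-600. Leaving them out, an alternative chosen after the data were seen, lowers the mean by construction.

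The fullest of these was chr2:96259001-96260000, with 764 reads in F3-152, 491 in F3-600 and 284 in B73. It thus held most of the F3 reads of the bin at chr2:96250001-96260000 and a small part of its B73 reads. Distinct reads made up 47.4% in F3-152, 54.0% in F3-600 and 63.4% in B73, and the median mapping quality was 27 in F3-152, 27 in F3-600 and 30 in B73. Its fold over the library median per kb was 84.9 in F3-152, 76.7 in F3-600 and 88.8 in B73, so the 3 lines were of like level in it. The next, chr2:96274001-96275000, had 545 reads in F3-152, 413 in F3-600 and 194 in B73, with folds of 60.6, 64.5 and 60.6. In the adjacent window chr2:96273001-96274000 the folds were 18.7 in F3-152, 15.9 in F3-600 and 137 in B73, so neighbouring windows of a bin could be alike or unlike between the lines.

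**Figure D4:**
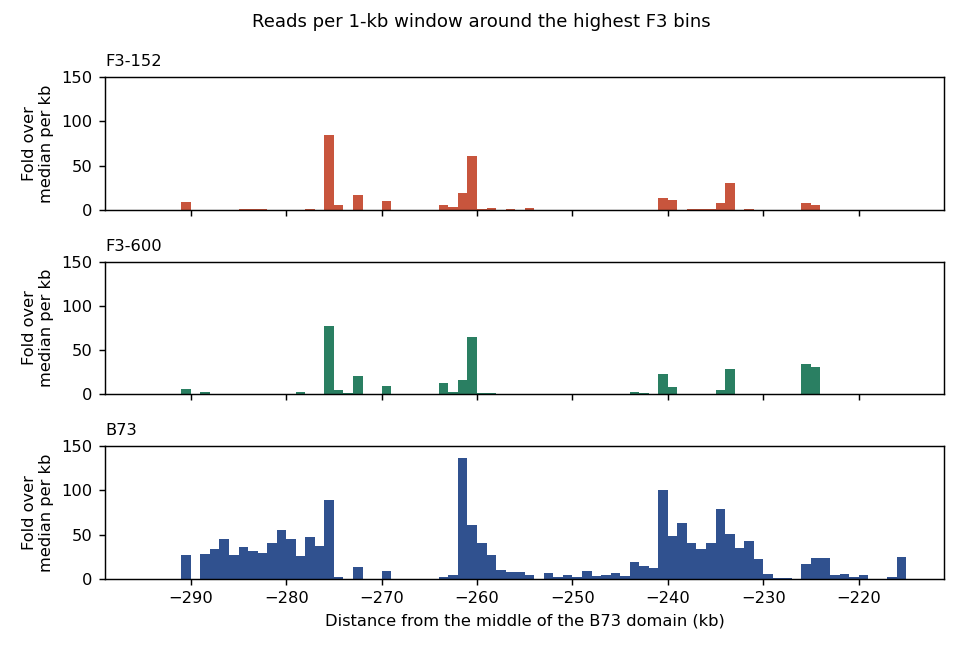
Reads per 1-kb window as fold over the library median per kb (vertical) for F3-152, F3-600 and B73 from top to bottom, against the distance in kb from the middle of the B73 domain, over 80 windows around the highest F3 bins. The F3 reads stand in a few windows, up to 84.9 in F3-152 and 76.7 in F3-600, whereas B73 reads fill many adjacent windows of this stretch.

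A further group of windows was high in F3-600 with reads of the highest mapping quality. Between chr2:95838001-95839000 and chr2:95851001-95852000, 5 of the 6 windows at a fold of 10 or more in F3-600 had a median mapping quality of 60 in all 3 lines. One of them, chr2:95850001-95851000, had 97 reads in F3-152, 81 in F3-600 and 81 in B73, with folds of 10.8, 12.7 and 25.3. Here 93.8% of the F3-152 reads, 98.8% of the F3-600 reads and 72.8% of the B73 reads were distinct. Over these 6 windows at least 87.2% of reads were distinct in F3-152 and at least 92.5% in F3-600. The F3-600 fold was below that of B73 in all but chr2:95838001-95839000, where it was 10.6 in F3-600 and 9.69 in B73.

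The share of reads in the windows that were fullest in B73 was alike in the 3 lines at the threshold of 10 and differed under other settings. The tenth of the 930 windows with the most B73 reads held 24.9% of the reads of the enriched bins in F3-152 (exact binomial interval 24.1 to 25.7), 24.0% in F3-600 (23.1 to 24.9) and 24.7% in B73. With bins enriched at a threshold of 20 it was 48.4% in F3-152, 45.2% in F3-600 and 19.7% in B73, and with a mapping quality minimum of 30 it was 20.1% in F3-152, 19.0% in F3-600 and 24.8% in B73. The tenth of windows fullest in each library itself held 50.6% in F3-152 and 56.4% in F3-600, at the threshold of 10.

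Measures that the choice of the interval did not use were the mapping quality, the aligned length and the length of the fragments. In the enriched bins 38.2% of reads had the highest mapping quality in F3-152, 35.3% in F3-600 and 54.1% in B73. The flanks had 56.5% in F3-152, 54.4% in F3-600 and 60.8% in B73. The difference, enriched bins minus flanks, was -18.4 percentage points in F3-152 (-19.3 to -17.4), -19.1 in F3-600 (-20.2 to -18.0) and -6.68 in B73 (-7.23 to -6.14). The F3 reads in the B73 centromere were thus less often placed with the highest certainty than the B73 reads of the same bins.

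Aligned length went the opposite way in the F3 lines and in B73. Reads aligned over fewer than 101 bp, the most frequent aligned length, made up 24.8% of reads of the enriched bins in F3-152, 23.5% in F3-600 and 11.2% in B73. In the flanks they were 18.5% in F3-152, 14.8% in F3-600 and 13.7% in B73. The enriched bins exceeded the flanks by 6.25 percentage points in F3-152 (5.46 to 7.06) and 8.63 in F3-600 (7.70 to 9.58), and in B73 the difference was -2.46 (-2.83 to -2.09). These intervals over reads are too narrow, since mates share a fragment. Without the windows at a fold of 10 or more in that line, the difference in aligned length was 2.53 in F3-152 and 3.65 in F3-600, and that in mapping quality -13.6 in F3-152 and -11.8 in F3-600. With a threshold of 20 both were larger, at 10.9 in F3-152 and 15.2 in F3-600 for aligned length and -34.8 in F3-152 and -38.2 in F3-600 for mapping quality.

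The length of a fragment, the distance between the outer ends of its mates, reflects how the nuclease cut between and within nucleosomes and which sizes were selected for the library. Library-wide, the median was 169 bp in F3-152, 306 bp in F3-600 and 193 bp in B73, so the lines can be compared only by the difference between enriched bins and flanks. In the enriched bins the median was 160 bp in F3-152, 287 bp in F3-600 and 187 bp in B73, and in the flanks 168, 304 and 188 bp. The difference was -8 bp in F3-152 (-9.41 to -7), -17 bp in F3-600 (-22.1 to -11.9) and -1 bp in B73 (-2.41 to 1.24). Without the windows at a fold of 10 or more it was -5 bp in F3-152 and -6 bp in F3-600, and with a threshold of 20 it was -13 bp in F3-152 and -48 bp in F3-600, so its size depended on the windows and bins counted.

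The B73 median hid a change in the shape of the distribution. Fragments from 140 to under 200 bp, about the size of DNA on a single nucleosome, made up 45.8% of pairs in the enriched bins of B73 and 41.0% in its flanks, and those from 280 to under 380 bp made up 23.8% and 20.3%. Between them, fragments from 200 to under 280 bp made up 14% in the enriched bins and 19.0% in the flanks, a difference of -4.97 percentage points (-5.64 to -4.31). In B73 the 2 peaks were thus more distinct in the centromere than outside it. Fragments from 200 to under 280 bp also made up a smaller share in the enriched bins of F3-152, at 12.9% against 16.4% in the flanks. In F3-600 they made up 14.9% and 18.3%. Neither F3 line had more fragments in the longer class, however, with 9.11% in the enriched bins and 9.97% in the flanks of F3-152, and 31.3% and 36.8% in F3-600. The shorter class held 51.5% in the enriched bins and 54.3% in the flanks of F3-152, and 23.2% and 19.8% in F3-600. These size classes were chosen after the distributions were seen, and none of them covers fragments under 140 bp. In the 20-bp class centred on 130 bp the F3 lines and B73 went opposite ways. It held 13.4% in the enriched bins and 10.6% in the flanks of F3-152, 4.49% and 2.33% in F3-600, and 5.61% and 7.29% in B73. The lower F3 share from 200 to under 280 bp is therefore not read as a valley like that of B73.

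**Figure D5:**
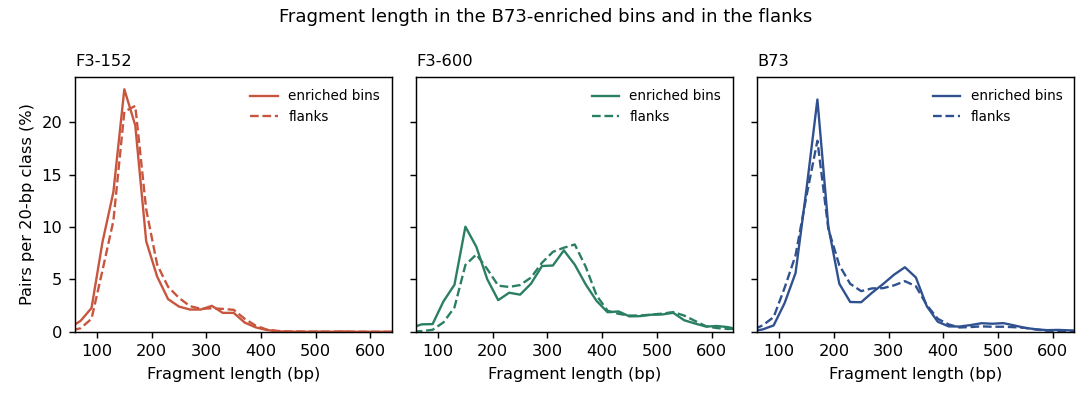
Share of read pairs per 20-bp class of fragment length (vertical, %) against fragment length in bp for F3-152, F3-600 and B73 from left to right, with 1 line for the B73-enriched bins and 1 for the flanks. The valley between the 2 B73 peaks is deeper in the enriched bins, at 14% against 19.0% of pairs from 200 to under 280 bp.

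No other stretch of chromosome 2 was enriched over a comparable length in an F3 line. Beyond the interval F3-152 had 3 single enriched bins on the chromosome, at chr2:176910001-176920000, chr2:196470001-196480000 and chr2:206600001-206610000, with folds of 14.3, 11.4 and 11.7. The fold in B73 was 1.94, 2.72 and 1.25 in these bins. F3-600 had 2 adjacent enriched bins at chr2:157580001-157600000, 61.1 Mb from the middle of the B73 domain, where the highest fold was 3.08 in F3-152, 39.5 in F3-600 and 90.2 in B73. B73 itself had 1 more enriched bin at chr2:450001-460000, with a highest fold of 3.56 in F3-152, 6.78 in F3-600 and 13.5 in B73. By uniquely aligned reads no run of more than 2 enriched bins was thus found on this chromosome in either F3 line. A site in sequence to which reads do not align uniquely, or that B73 RefGen_v4 lacks, would not be seen.

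The domains that the same threshold gave on chromosomes 5 and 8 set the values of chromosome 2 beside a centromere with and one without enriched F3 bins. The 123 enriched bins at chr5:104750001-106560000 had a mean fold of 20.9 in F3-152 (20.8 to 21.0), 12.6 in F3-600 (12.5 to 12.7) and 25.5 in B73 (25.2 to 25.7), and 101 of them were enriched in F3-152 and 63 in F3-600. The 107 bins at chr8:50340001-52010000 had 1.92 in F3-152 (1.88 to 1.96), 1.58 in F3-600 (1.54 to 1.62) and 25 in B73 (24.8 to 25.2), with 0 enriched in either F3 line. Bins at a fold of 0.5 or less numbered 27 of 93 in F3-152 and 34 in F3-600 on chromosome 2, and 0 of 107 in F3-152 and 3 in F3-600 on chromosome 8. Against the genome-wide 30.2% in F3-152 and 31.0% in F3-600, the shares on chromosome 2 were near the background, so nothing particular to it is read from them. The 3 domains were chosen by their read levels, so these differences are descriptions.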

How the data were processed

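Anti-CENH3 ChIP-seq libraries of F3-152, F3-600 and B73 (1 each) were analysed from the deposited positions of aligned reads. Per the labels, the authors cut chromatin with micrococcal nuclease before precipitation. Per the paper's methods, they sequenced both ends of the fragments and mapped B73 reads to B73 RefGen_v4 by BWA with default parameters, keeping uniquely mapped reads. The submitters' processing notes name BWA and CASAVA for all 3 libraries, without versions. The authors deposited 1 row per aligned read with its position, strand and mapping quality as a score, without normalization. Whether duplicates were removed is not given in the sources used here. Reads sharing position and strand remain in the deposited positions, where 79.8% of B73 reads were distinct. Reads that matched several places are missing from the counts.

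Each read was assigned by its midpoint to a bin of 10 kb and a window of 1 kb. Enriched bins up to 500 kb apart were joined into a domain. Mates were matched by read name and taken as a fragment where they lay on opposite strands of a chromosome with outer ends up to 1000 bp apart. Intervals are exact Poisson over fragments, exact binomial for shares, and order-statistic intervals for medians. The scripts were checked on simulated data. Sites named were the 5 fullest runs, the bins at the ends of the B73 fold, of the F3 folds and of the F3 to B73 ratio, the bins nearest the threshold, and 1 domain each on chromosomes 5 and 8. Other windows, the fold of 0.5, the size classes and the stretch plotted at 1 kb were picked after their values were seen. The members, lists and alternatives were chosen with earlier results of these data known. A genome sequence and gene places of B73 RefGen_v4 were not used here, so no sequence is shown and no gene is placed. The software was SciPy 1.17.1, NumPy 2.4.6 and pandas 2.3.3 under Python 3.11.15, with figures by Matplotlib 3.10.9.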

Additional observations from a re-analysis of the deposited data

How the results depend on the processing

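A value with an interval was said to stay if it lay within the interval of the reported value. A count stayed if it was within a factor of 1.5 of the reported one, and the domain span only if equal. Of 169 alternative values for 27 results, 72 stayed by these rules and 97 moved. None changed sign, but the domain to flank ratio of F3-600 passed 1 when bins were joined over 100 kb. Except where the construction of an alternative shows it, the cause of a move was not tested. Values are given for F3-152, F3-600 and B73 in this order where there are 3. With a threshold of 5 the domain spanned 2.13 Mb, 2 and 7 bins of the interval were enriched in the F3 lines (all B73-enriched), and the mean fold was 1.31, 1.35 and 16.5. The domain to flank ratio was 0.772 in F3-600 and 7.58 in B73, the fragment difference -11 bp in F3-600, the mapping quality difference -16.6 points in F3-152, and the top-tenth share 23.4% in F3-152 and 28.6% in B73. With a threshold of 20, B73 had 38 enriched bins over 1.41 Mb, with mean folds of 1.49 in F3-600 and 29.997 in B73 and domain to flank ratios of 0.521, 0.584 and 7.01. The fragment difference was then -13 bp in F3-152 and -48 bp in F3-600, the mapping quality difference -34.8, -38.2 and -6.00 points, the aligned length difference 10.9 in F3-152 and 15.2 in F3-600, and the top-tenth share 48.4%, 45.2% and 19.7%. Bins of 5 kb gave 185 enriched bins over 2.02 Mb, 2 and 4 of them enriched in the F3 lines, mean folds of 1.5, 1.58 and 21.6, and a difference in empty bins of 34.2 points in F3-152. Bins of 50 kb gave 18 enriched bins over 1.55 Mb and mean folds of 1.07, 1.11 and 18.5, the bins being fewer and wider by construction. Joining over 100 kb gave 0.65 Mb, ratios of 0.999, 1.12 and 9.15, and differences in empty bins of 2.74, 3.56 and 3.07 points, against 26.4, 28.5 and 26.1, since the long empty stretches then fall outside the domain. A mapping quality of at least 30 gave mean folds of 1.29, 1.24 and 20.9, ratios of 0.610 in F3-152 and 0.692 in F3-600, aligned length differences of 5.35 and 6.91 points and top-tenth shares of 20.1% and 19.0%. With duplicates collapsed the mean folds were 1.25, 1.29 and 18.7, the F3 ratios 0.636 and 0.744, the mapping quality differences -16.9, -17.8 and -8.51 points, the aligned length differences 7.61, 9.81 and -1.48, and the top-tenth shares 22.2%, 21.3% and 22.4%. With fragments in place of reads, 1 and 2 bins were enriched in the F3 lines, the F3 mean folds were 1.52 and 1.48, and the B73 ratio was 7.57. Scaling to the mean of all bins gave 1.27, 1.32 and 19.1, and scaling to the flank median 1.07, 1.25 and 17.6. Without the windows at a fold of 10 or more in that F3 line, the mean folds were 1.16 and 1.03, the fragment differences -5 and -6 bp, the mapping quality differences -13.6 and -11.8 points and the aligned length differences 2.53 and 3.65 points.

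With 1 library per line, nothing was left out in turn and the spread between plants is unknown. No paired analysis was possible because each line has 1 library. Depth limits the low bins most, since at a fold of 0.5 a bin holds 45 reads in F3-152, 32 in F3-600 and 16 in B73. Counts by uniquely aligned reads do not measure the 52 empty bins of the domain.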
